A study of Arabidopsis thaliana with 42 samples.

Results

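The comparison described here sets 3 RNA-seq libraries of ddm1nrpe1 double mutant seedlings against 3 libraries of the ddm1 single mutant, and asks what loss of RNA polymerase V adds to a plant that already lacks DDM1. The 6 libraries were taken by their genotype labels (which spell the double mutant ddm1npre1, while the deposited columns spell it ddm1nrpe1) out of 12 RNA libraries and 42 samples in the series. The other RNA groups, ddm1nrpd1 and ddm1cmt2 with 3 libraries each, entered the same model and are used only to show where ddm1nrpe1 differs from them. All 4 groups of Arabidopsis thaliana carry the ddm1 mutation, so a wild-type level is not part of any comparison. PolyA RNA came from whole seedlings at 2 weeks, grown on sucrose agar at 22 °C with 16 h days after 7 days in the cold. The labels of the RNA libraries name neither the alleles, nor the hour of harvest, nor whether replicates were separate cultures, so p-values measure only the spread between these libraries, which may be technical. The series was designed to look for genetic interaction between the CMT2 route and RNA-directed DNA methylation.

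In plants, transposons are kept silent by DNA methylation. DDM1 is a chromatin remodeller that opens heterochromatin to the maintenance methyltransferases, among them CMT2, which methylates cytosines outside CG sites. In RNA-directed DNA methylation (RdDM), polymerase IV (largest subunit NRPD1) makes the precursors of small RNAs, and polymerase V (largest subunit NRPE1) makes the scaffold transcripts to which those small RNAs guide the methyltransferase DRM2.

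Total counts were 16.3, 18.1 and 18.8 M in the ddm1nrpe1 libraries and 8.75, 7.84 and 10.2 M in the ddm1 libraries, so the double mutant was sequenced more deeply, and 24839 of the 25069 loci in the table were tested. Levels are given as CPM, each count relative to its library's total after TMM scaling, and a locus was called at an adjusted p under 0.05 in edgeR's quasi-likelihood test, adjusted over all tested loci. Of the fixed tissue markers, 26 of 26 nuclear photosynthesis genes, 20 of 21 root hair genes and 15 of 16 genes of other root cell types passed the filter, against 3 of 8 floral organ genes and none of 10 seed storage genes. On the first principal component, which held 52.3% of the variance, the ddm1nrpe1 and ddm1nrpd1 libraries lay on one side (-83.7 to -54.7) and the ddm1cmt2 and ddm1 libraries on the other (55.9 to 75.7). Plastid transcripts split the libraries in the same way. They took 0.309%, 0.262% and 0.124% of counts in ddm1nrpe1, against 1.57%, 1.71% and 1.97% in ddm1, with means of 0.223% in ddm1nrpd1 and 0.87% in ddm1cmt2. Genotype and any difference in plant growth, harvest or library preparation that follows this split cannot be told apart here.

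The mutated genes were read first. The NRPE1 transcript stood at 55.7, 55.1 and 65.2 CPM in the libraries labelled ddm1nrpe1, against 13.1, 12 and 14.1 CPM in ddm1. It was thus higher in every library labelled for its loss (log2 fold change 2.16 ± 0.15, SE, adjusted p = 2.2e-08), while ddm1nrpd1 and ddm1cmt2 averaged 7.94 and 11.8 CPM. The counts therefore do not show the loss of the gene, and ddm1nrpe1 here means the libraries labelled so. NRPD1 had a like pattern in its own mutant, with a mean of 14.1 CPM in ddm1nrpd1 against 5.74 CPM in ddm1. DDM1 averaged 11.9 ± 1.21 CPM in ddm1nrpe1 and 14.6 ± 2.57 CPM in ddm1 (SD, n = 3 each), which missed the threshold (adjusted p = 0.128) but was called lower when ddm1 replicate 1 was left out (log2 fold change -0.44). CMT2 stood at 16.2, 16.9 and 17.9 CPM in ddm1nrpe1, against 35.2, 30.2 and 29.9 CPM in ddm1, and fell by 0.90 on the log2 scale (adjusted p = 1.2e-05).

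Across all loci, 6582 were higher in ddm1nrpe1 than in ddm1 (26.5% of those tested) and 5945 were lower (23.9%), with a median log2 fold change of 0.01. Most of these differences were small. A change of 2-fold or more was seen at 2661 higher and 1902 lower loci, and a test against a 1.5-fold change called 2550 and 1789. Transposable element (TE) loci leaned upward. Of 1919 tested, 725 rose (37.8%) and 424 fell (22.1%), with a median of 0.17, and among changes of at least 2-fold 537 rose and 184 fell. Pseudogene loci, a class that in this annotation holds many transposon remnants, showed 678 higher (35.5%) and 467 lower (24.5%) of 1909. Tested TE and pseudogene loci were near equal in number on each chromosome (359 and 351 on chromosome 1, 423 and 418 on chromosome 2). Whether they cover the same elements and share reads was not tested, so the pseudogene counts are not a separate result. Protein-coding loci were nearly even, with 5057 higher (25%) and 4781 lower (23.7%) of 20210 and a median of 0.00.

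**Figure D1:**
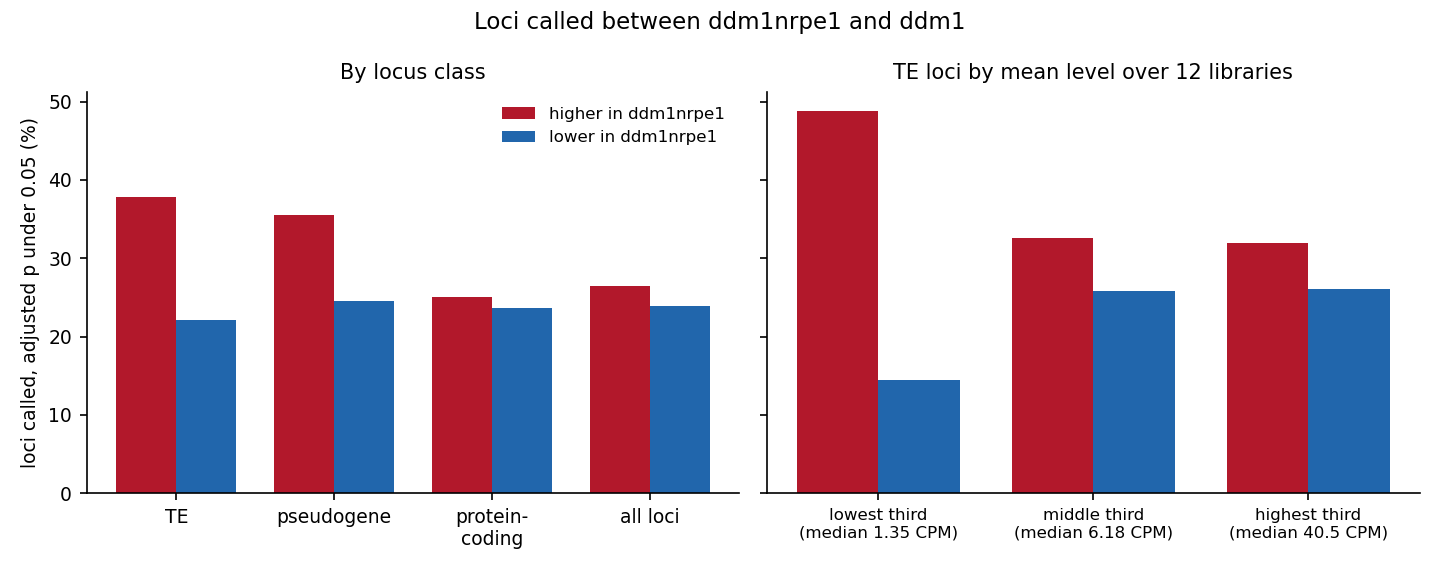
Percentage of tested loci called higher (red) or lower (blue) in ddm1nrpe1 than in ddm1, by locus class (left) and, for TE loci, by level in 3 equal classes of mean log2 CPM over the 12 libraries (right). TE loci were higher in 37.8% and lower in 22.1% of cases, and in the class with the lowest levels the higher share was 48.8% and the lower share 14.4%.

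The share of all counts that fell on TE loci was 6.69%, 6.61% and 6.87% in ddm1nrpe1, against 6.01%, 5.61% and 6.55% in ddm1. The groups did not overlap. The difference of 0.666 percentage points compares with SDs of 0.133 in ddm1nrpe1 and 0.472 in ddm1, came to 0.442 when ddm1 replicate 2 was left out and to 0.913 when replicate 3 was, and the two-sided exact permutation p of 0.1 is the smallest possible with groups of 3. Pseudogene loci held 7.28%, 7.1% and 7.37% of counts in ddm1nrpe1, against 6.08%, 5.6% and 6.54% in ddm1, again without overlap and at the same exact permutation p of 0.1. The TE and pseudogene shares may count the same elements, which was not tested. Protein-coding loci held 84.2% and 84.3% on average (exact permutation p = 0.8).

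**Figure D2:**
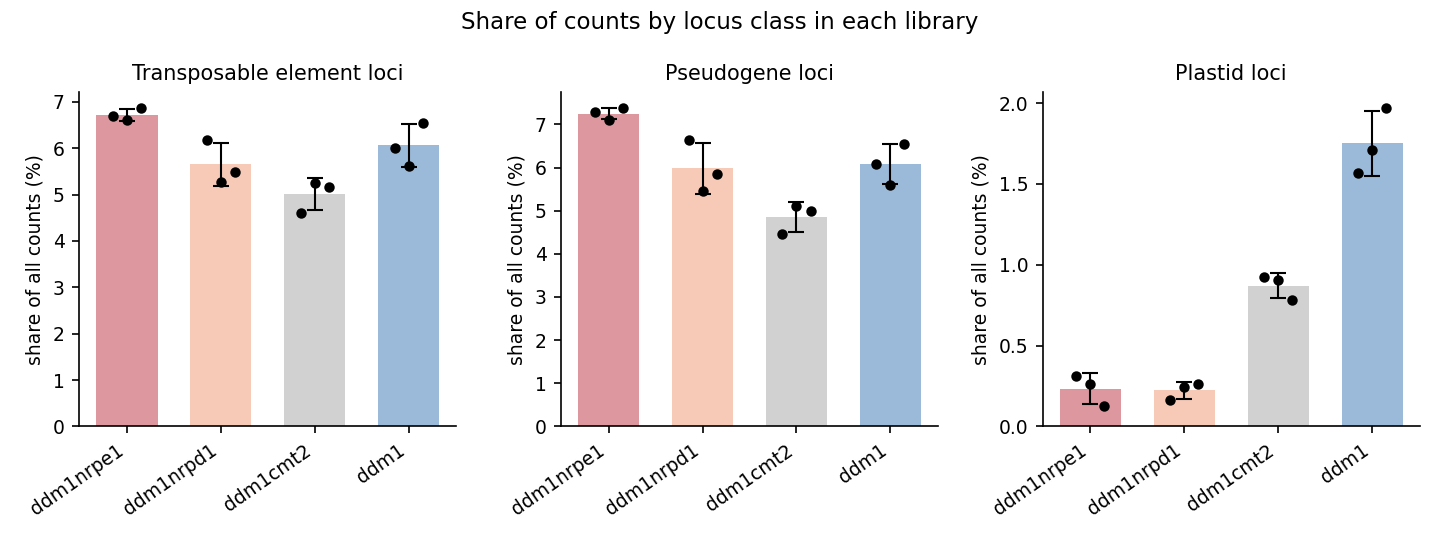
Share of each library's counts (%) on TE, pseudogene and plastid loci. Bars are group means, error bars the SD of 3 libraries, and points the libraries. TE and pseudogene shares were a little higher in ddm1nrpe1 than in ddm1 (means 6.72% and 6.06% for TE loci), and plastid shares were lower.

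Rises outnumbered falls most clearly in the TE class with the lowest mean log2 level. TE loci were split into 3 equal classes by their mean log2 CPM over all 12 libraries. The lowest class (median 1.35 CPM) had 312 higher and 92 lower loci of 640, with a median log2 fold change of 0.85. The middle class (median 6.18 CPM) had 208 higher and 165 lower, and the highest class (median 40.5 CPM) had 205 higher and 167 lower, with medians of 0.05 and -0.00. The split used the same libraries and is a description. Libraries without counts pull a locus strongly down on the log scale, and the ddm1 libraries were the shallowest. The sorting can thus place loci that rose from near absence in the lowest class, and its part in the lean was not tested. The lean was seen on every chromosome: the share of TE loci that rose ran from 32.7% on chromosome 5 to 41.8% on chromosome 4, and all 5 chromosome medians were above 0 (0.11 to 0.24).

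The 725 TE loci that rose summed to 29500, 29300 and 30200 CPM in ddm1nrpe1, against 13800, 13100 and 14700 CPM in ddm1, and 10 of them held 20.2% of that difference. Their median level was 8.7 CPM in ddm1nrpe1 and 1.87 CPM in ddm1, and 8 had no count in any ddm1 library. AT4TE18270 stood at 4.08, 4.8 and 6.04 CPM in ddm1nrpe1 with 0 counts in ddm1, and was at least 46-fold higher, taking 3 counts over the ddm1 libraries as the floor. AT5TE41430 (3.67, 4.13 and 2.96 CPM) was at least 33-fold higher and AT4TE18700 (1.12, 2.48 and 3.67 CPM) at least 22.7-fold higher on the same floor. AT5TE41245, AT1TE52400 and AT4TE21910 also had no ddm1 count and were at least 17.9-fold, 13.4-fold and 11.3-fold higher. The clearest case with counts in both groups was AT1TE43225, on chromosome 1, at 18.3, 31.7 and 40.6 CPM in ddm1nrpe1 and 0.22, 0.37 and 0.192 CPM in ddm1 (log2 fold change 6.85 ± 0.54, adjusted p = 1.9e-06). Every ddm1nrpe1 library was far above every ddm1 library at this element. AT3TE52510 averaged 5.2 CPM in ddm1nrpe1 and rested on 1 count in ddm1, a ratio of 143 with a 95% counting interval of 25.5 to 5680. Among pseudogenes, AT2G13270 averaged 13.3 CPM in ddm1nrpe1, likewise with 1 count in ddm1 (ratio 369, interval 66 to 14600), and AT4G17820 and AT4G07460 were at least 16.7-fold and 16-fold higher. How reads that match several copies of an element were counted is not given, so a level at one TE or pseudogene copy may include reads from its relatives.

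The 424 TE loci that fell summed to 8360, 8770 and 9580 CPM in ddm1nrpe1, against 16100, 15100 and 17500 CPM in ddm1. A single element on chromosome 4, AT4TE15820, held 16.2% of that difference. It stood at 2.66, 3.53 and 5.17 CPM in ddm1nrpe1, against 1210, 1120 and 1260 CPM in ddm1, and was nearly absent from every library of the double mutant (log2 fold change -8.29 ± 0.28, adjusted p = 5.6e-11). AT4TE15825 had 4 counts in all ddm1nrpe1 libraries together (0.0592, 0 and 0.162 CPM), against 245, 248 and 259 CPM in ddm1 (log2 fold change -11.56 ± 0.40, adjusted p = 1.3e-10). AT4TE15835 and the pseudogene AT4G06566 went the same way, with means of 0.188 against 19.4 CPM and of 6.88 against 1010 CPM in ddm1nrpe1 and ddm1. The same 4 loci were also below ddm1nrpd1 and ddm1cmt2, where AT4TE15820 still averaged 402 and 753 CPM. The nearest identifiers in the table showed no fall of this size: AT4TE15750 averaged 35.9 CPM in ddm1nrpe1 and 37 CPM in ddm1 (adjusted p = 0.844), and AT4TE15875 was higher in ddm1nrpe1 (89.3 against 59.6 CPM). Among pseudogenes, AT4G06564 fell by 0.82 on the log2 scale (2.06 against 3.65 CPM in ddm1, adjusted p = 0.0128), and AT4G06570 was higher (127 against 91.8 CPM). AT4TE15820, AT4TE15825 and AT4TE15835 made up 0.000406% of counts in ddm1nrpe1 and 0.151% in ddm1, and without them the TE share was 6.72% against 5.91%. Whether these loci overlap and share reads was not tested.

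**Figure D3:**
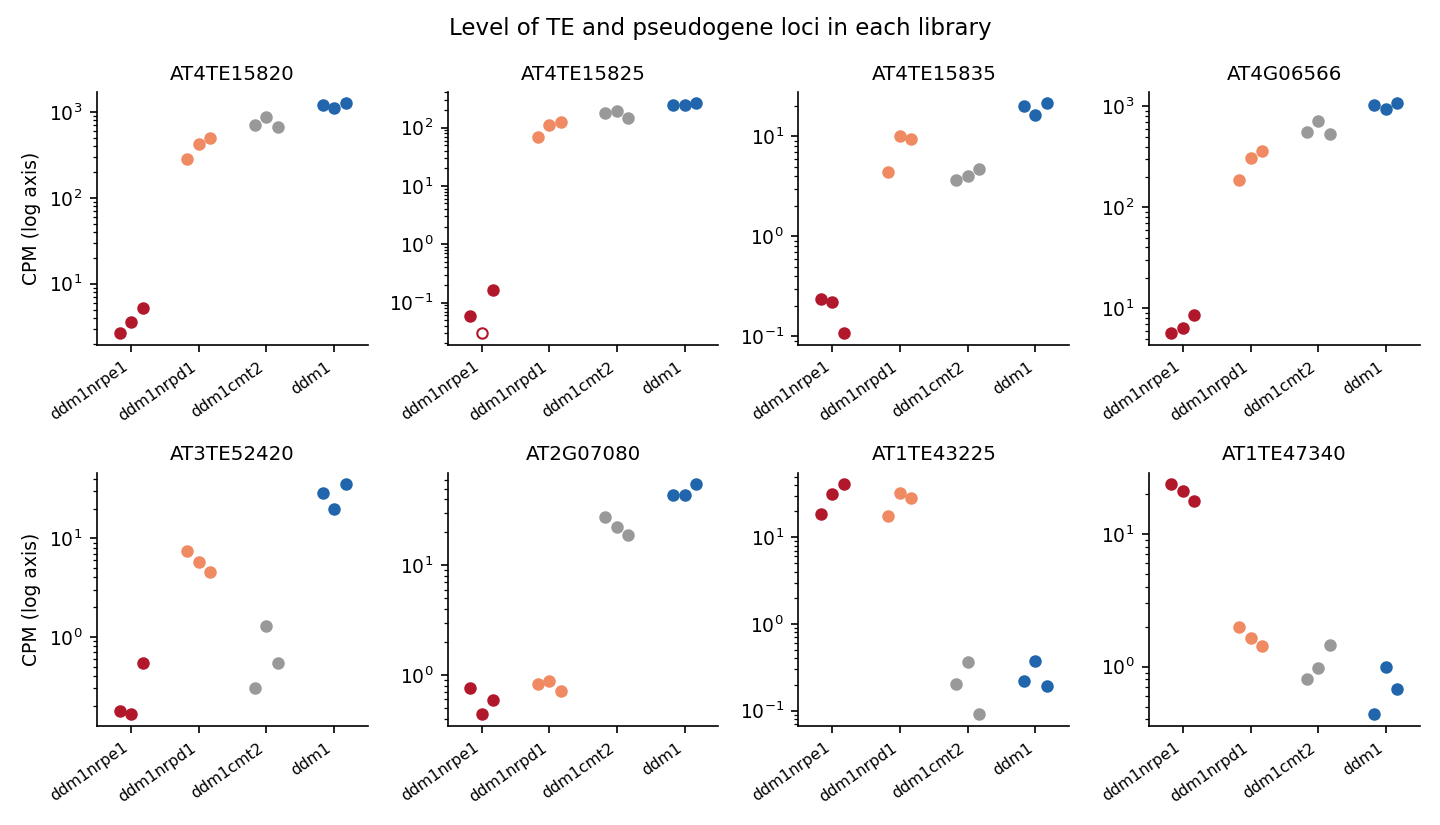
CPM (log axis) in each of the 12 libraries for 8 TE and pseudogene loci, coloured by genotype. The open circle marks a library with 0 counts, drawn at a fixed low position. AT4TE15820, AT4TE15825, AT4TE15835 and AT4G06566 are lowest in the ddm1nrpe1 libraries, AT1TE43225 is high in ddm1nrpe1 and ddm1nrpd1, and AT1TE47340 is high in ddm1nrpe1.

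Other losses were scattered. AT3TE52420 on chromosome 3 stood at 0.177, 0.165 and 0.539 CPM in ddm1nrpe1, against 28.8, 19.8 and 35.1 CPM in ddm1 (log2 fold change -6.51 ± 0.41, adjusted p = 5.0e-08), and its neighbour by number AT3TE52430 also fell (-4.78 ± 0.77). Both were also low in ddm1cmt2, with 0.709 and 0.169 CPM. AT3TE47880 had no count in ddm1nrpe1 and was at least 20.1-fold lower than in ddm1, and AT1TE43430 fell by 4.26 on the log2 scale. The pseudogene AT2G07080 stood at 0.769, 0.441 and 0.593 CPM in ddm1nrpe1, against 43.9, 43.6 and 54.5 CPM in ddm1 (-6.29 ± 0.21, adjusted p = 2.2e-12), and its mean in ddm1nrpd1 was as low, 0.804 CPM.

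To see which of these differences also set ddm1nrpe1 apart from the other double mutants, it was tested directly against each. Against ddm1nrpd1, which lacks the other RdDM polymerase, 4896 loci were higher (19.7%) and 4074 lower (16.4%), the second count dropping to 2640 without ddm1nrpe1 replicate 2. Among TE loci 575 were higher and 295 lower. Against ddm1cmt2, 7001 loci were higher (28.2%) and 6686 lower (26.9%), with 901 higher and 309 lower among TE loci. Across the 4 genotypes, ddm1nrpe1 had the highest mean at 720 TE loci (37.5%), ddm1nrpd1 at 458, ddm1cmt2 at 255 and ddm1 at 486. Loci above all 3 other genotypes in separate tests numbered 1994 (8.03%), with 316 of the 1919 TE loci (16.5%) among them, and 1495 (6.02%) were below all 3, with 76 TE loci (3.96%). Every one of these tests uses the same ddm1nrpe1 libraries.

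AT1TE47340 was the best measured TE locus of the first kind, at 23.5, 20.9 and 17.7 CPM in ddm1nrpe1, against means of 1.69 in ddm1nrpd1, 1.08 in ddm1cmt2 and 0.7 CPM in ddm1. The log2 fold change was 3.61 against ddm1nrpd1 (adjusted p = 4.4e-09) and 4.89 against ddm1 (adjusted p = 4.4e-10). AT5TE41430, AT1TE51745 and the pseudogenes AT5G30390 and AT3G43566 had the same order, with 6.52 CPM for AT5G30390 in ddm1nrpe1 and no more than 0.377 CPM in any other group's mean. AT5G34830, listed as protein-coding, was uneven within ddm1nrpe1 (27.6, 29.2 and 7.98 CPM) but above every ddm1 library (0, 0.37 and 0.769 CPM). In contrast, AT1TE43225 did not differ detectably from ddm1nrpd1, whose mean was 25.9 CPM (log2 difference 0.22, adjusted p = 0.562). AT5TE71590 and AT2TE16445 were the TE loci furthest above ddm1nrpd1 apart from those named: AT5TE71590 averaged 1.87 CPM in ddm1nrpe1, had no count in ddm1nrpd1 (at least 36.5-fold higher) and averaged 6.35 CPM in ddm1.

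Some genes of the silencing pathways themselves differed between the double and the single mutant. The counts of these lists are to be read beside the shares over all loci, 26.5% higher and 23.9% lower. ROS1, the DNA glycosylase that removes methylcytosine, stood at 1.36, 2.48 and 2.96 CPM in ddm1nrpe1, against 46.3, 38.6 and 41.2 CPM in ddm1 (log2 fold change -4.20 ± 0.22, adjusted p = 3.0e-09). Its mean was 2.64 CPM in ddm1nrpd1 and 36 CPM in ddm1cmt2, so both RdDM double mutants were low and ddm1cmt2 was near ddm1. Transcription of ROS1 is known to depend on methylation of its promoter. Of the 8 tested genes of active demethylation, 1 rose and 3 fell, with a median of -0.20: DML2, another glycosylase, was higher (20.7 against 14.3 CPM in ddm1) and IDM1, a histone acetyltransferase that prepares sites for demethylation, was lower (15.5 against 27.4 CPM).

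In the Pol IV arm, 5 of 8 tested genes fell and 1 rose, with a median of -0.52. CLSY1, a chromatin remodeller that brings Pol IV to its loci, stood at 2.43, 3.03 and 3.56 CPM in ddm1nrpe1, against 11.6, 10.1 and 9.9 CPM in ddm1 (-1.81 ± 0.19, adjusted p = 1.7e-06). DCL3, which cuts the small RNAs of the pathway, averaged 4.15 CPM against 9.59 CPM in ddm1, and RDR2, which makes their double-stranded precursor, 5.4 against 8.99 CPM. CLSY1, DCL3 and HEN1, which methylates small RNA ends, were below all 3 other genotypes. The 1 gene that rose, SHH1, a reader of histone methylation, lost its call without ddm1 replicate 1 or ddm1nrpe1 replicate 2, and AGO4, the slicer that carries the small RNAs, lost its lower call without ddm1 replicate 3 or ddm1nrpe1 replicate 2.

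In the Pol V arm, 3 of 19 tested genes rose and 7 fell, with a median of -0.19, and NRPE1 itself was the largest rise. Without ddm1nrpe1 replicate 1 the counts were 2 and 4. FDM1, which binds double-stranded RNA, averaged 19.6 CPM in ddm1nrpe1 and 32.4 CPM in ddm1 (adjusted p = 3.9e-04), and MORC6, an ATPase of gene silencing, 10.1 against 16.3 CPM. NRPD2A, the second subunit shared by both polymerases, averaged 16.6 against 24.1 CPM, and KTF1, which binds AGO4, 27 against 38.8 CPM. DRM2 missed the threshold (11.7 against 12.3 CPM, adjusted p = 0.657). Of 12 maintenance genes 2 rose and 4 fell, which is near the shares over all loci (26.5% higher and 23.9% lower). CMT2 is given above, the methylcytosine-binding protein VIM3 averaged 6.57 against 10.9 CPM and the histone methyltransferase SUVH6 10.9 against 14.5 CPM. SUVH4, another such enzyme, was called higher at the threshold itself (adjusted p = 0.05) and lost that call without any 1 library, leaving IBM1, a histone demethylase, as the 1 higher member (26.7 against 20.8 CPM). The lower count was 8 in place of 4 without ddm1nrpe1 replicate 3.

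Some genes known to be silenced by DNA methylation were expressed far more in ddm1nrpe1. SDC, an F-box gene with methylated repeats in its promoter, stood at 509, 595 and 734 CPM, against 24.5 ± 1.35 CPM in ddm1 (SD, n = 3; 4.64 ± 0.21, adjusted p = 5.3e-10). APUM9, a Pumilio RNA-binding protein, stood at 25.6, 34.7 and 30.7 CPM, against 0.988, 0.741 and 1.15 CPM in ddm1 (4.95 ± 0.23, adjusted p = 1.8e-10). RMG1, a resistance gene, stood at 5.5, 3.58 and 2.7 CPM, against 0.329, 0.123 and 0 CPM (4.67 ± 0.76). These 3 were the members called higher of 6 tested, where 26.5% of all loci were called higher, and all were also high in ddm1nrpd1 (means of 502, 22.6 and 4.14 CPM) while their means in ddm1cmt2 were 24.9, 0.665 and 1.01 CPM. FWA, a homeobox gene that delays flowering when it loses its methylation, did not pass: it stood at 18, 14.7 and 16.3 CPM in ddm1nrpe1, and ranged over 0.988, 14.7 and 71.5 CPM among the ddm1 libraries (adjusted p = 0.457), and its log2 fold change was 1.07 without ddm1 replicate 3. QQS, an orphan gene of starch metabolism, was lower in ddm1nrpe1 (32.9 against 45.3 CPM).

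**Figure D4:**
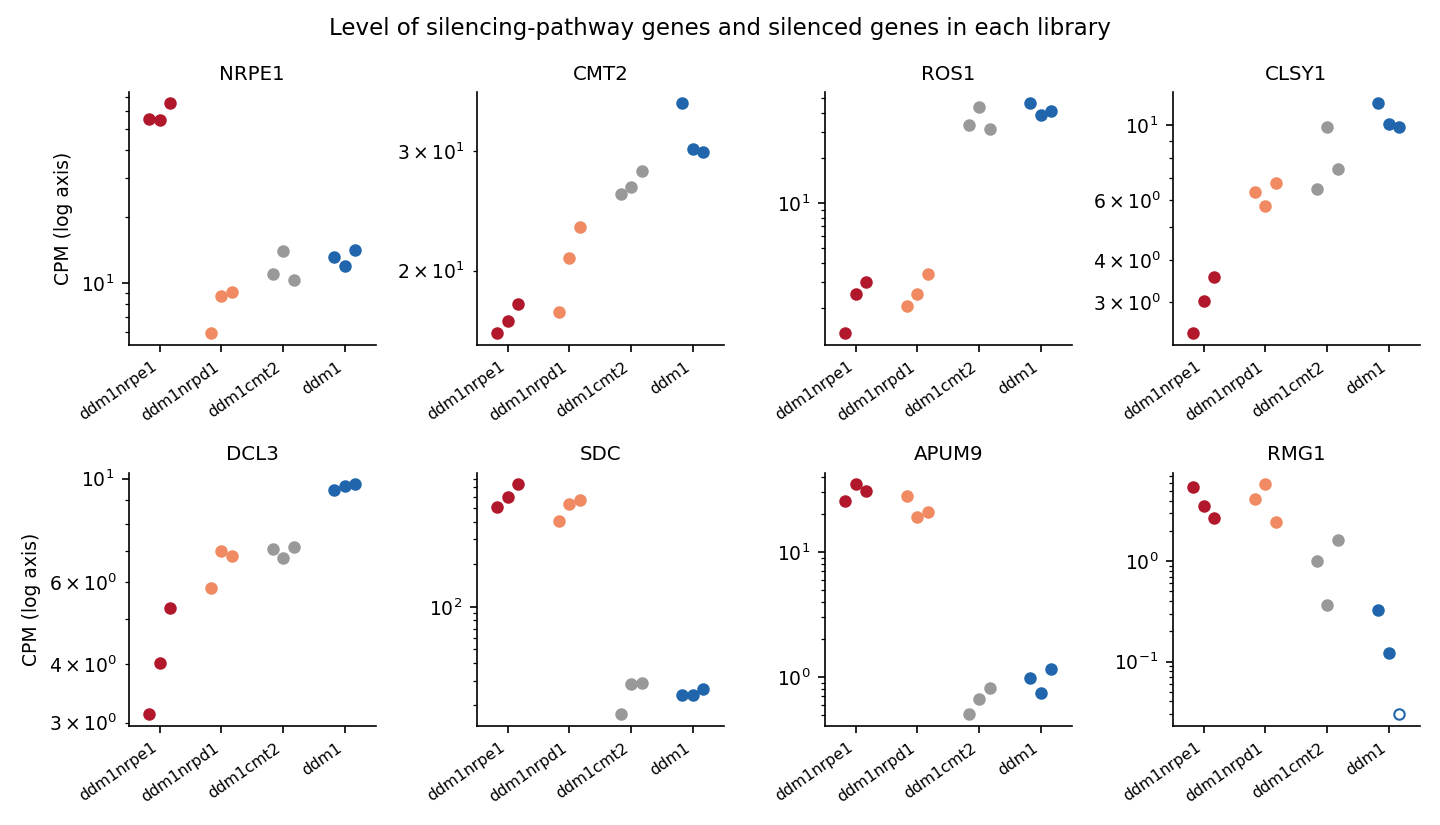
CPM (log axis) of 8 genes in each of the 12 libraries; the open circle marks 0 counts. NRPE1 is highest in the libraries labelled ddm1nrpe1, ROS1 is low and SDC, APUM9 and RMG1 are high in ddm1nrpe1 and ddm1nrpd1, and CMT2, CLSY1 and DCL3 are lower in ddm1nrpe1 than in ddm1.

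Many immune genes were higher in ddm1nrpe1. Of 23 tested genes of salicylic acid defence, 20 were higher and 1 lower, with a median log2 fold change of 2.48 against 0.01 over all loci. The test against a 1.5-fold change called 11 of them higher and none lower. List counts here and below are to be read beside the shares over all loci, 26.5% higher and 23.9% lower. PR1, the standard marker of this response, stood at 1380, 875 and 694 CPM in ddm1nrpe1, against 10.2, 6.79 and 0.192 CPM in ddm1 (7.46 ± 0.76, adjusted p = 5.6e-05). The glucanase BGL2 averaged 106 against 2.85 CPM, and FMO1, which makes the systemic signal N-hydroxypipecolic acid, 6.47 against 0.265 CPM. ICS1, the synthase of salicylic acid, changed less (24.1 against 13.1 CPM) and lost its call without ddm1 replicate 1. The exception was SNC1, an immune receptor, at 139 CPM against 181 CPM in ddm1, while its neighbours in the same receptor cluster, RPP4 and RPP5, were higher (44 against 13.9 and 86 against 59.1 CPM). These receptors are near-identical relatives, so their reads may be divided between them. Against ddm1nrpd1 the same list had 4 higher and 1 lower, and PR1 averaged 726 CPM there (adjusted p = 0.564). Against ddm1cmt2 it had 5 higher and 3 lower, with a median of 0.33. Its summed level was 1400 to 2340 CPM in ddm1nrpe1, 1170 to 1540 CPM in ddm1nrpd1 and 879 to 1300 CPM in ddm1cmt2. In ddm1 it was 362 to 411 CPM, so the summed level was above ddm1 in every double mutant. PR1 carried much of the sum in ddm1nrpe1 and ddm1nrpd1, so the sum does not show how many members rose.

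Jasmonate genes were more mixed, with 10 of 18 higher and 3 lower. LOX2, the lipoxygenase that starts the synthesis, stood at 611, 597 and 423 CPM in ddm1nrpe1, against 37.9, 80.7 and 21.1 CPM in ddm1 (3.56 ± 0.46, adjusted p = 1.8e-04), and the synthesis enzymes AOS (55.4 against 18.7 CPM) and AOC2 (49.1 against 11.7 CPM) were also higher. The regulator MYC2 (17 against 28.7 CPM) and the storage protein VSP2 (3.86 against 16.6 CPM) were lower. Against ddm1cmt2 the jasmonate list had 3 higher and 7 lower, with a median of -0.38, and against ddm1nrpd1 1 higher and 4 lower. Its summed level was also above ddm1 (166 to 300 CPM) in ddm1nrpd1 (487 to 607 CPM) and ddm1cmt2 (622 to 741 CPM). Of 10 tested heat genes 6 were higher and none lower, among them the heat shock factor HSFA2 (3.33 against 0.256 CPM) and HSP90.1, a chaperone (17.9 against 2.96 CPM). The heat list summed to 88 to 129 CPM in ddm1nrpe1, 92.7 to 139 CPM in ddm1nrpd1, 60.8 to 86.2 CPM in ddm1cmt2 and 51.5 to 58.4 CPM in ddm1. Against ddm1nrpd1 2 heat genes were higher and 2 lower, so the rise was not particular to ddm1nrpe1.

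The low-oxygen genes were the only one of the lists with at least 5 tested members in which all rose: 11 of 11 were higher in ddm1nrpe1 than in ddm1, with a median of 2.83, and 9 were also above ddm1nrpd1 and ddm1cmt2. HRE2, an ethylene response factor of hypoxia, stood at 13.5, 12.1 and 4.64 CPM in ddm1nrpe1, against 0.439, 0.494 and 0.481 CPM in ddm1 (4.39 ± 0.47, adjusted p = 5.0e-06). LBD41, a transcription factor, stood at 132, 96.7 and 51.7 CPM, against 9.99, 5.56 and 9.04 CPM (3.5 ± 0.45), and the fermentation enzyme ADH1 at 368, 374 and 170 CPM, against 17.1, 23.2 and 51.8 CPM (3.3 ± 0.52). Groups did not overlap at these genes, and replicate 3 was the lowest of the ddm1nrpe1 libraries at each. HB1, a haemoglobin, averaged 267 against 27.1 CPM, and PCO2, an enzyme that marks hypoxia factors for breakdown, 35 against 4.85 CPM. Of the other 2 members, ADH1 was not called above ddm1nrpd1 (mean 167 CPM, adjusted p = 0.185) and SUS1, a sucrose synthase, was not called above ddm1cmt2. SUS1 averaged 84.9 against 54.1 CPM in ddm1, and that call was lost without ddm1nrpe1 replicate 1 or 2 or ddm1 replicate 1 or 2.

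Auxin response genes leaned the same way, with 10 of 14 higher and 1 lower against ddm1 and 13 of 14 higher against ddm1nrpd1, and 7 were above all 3 other genotypes. Against ddm1, the 1.5-fold test called 5 higher and none lower. IAA29, an auxin-induced repressor, stood at 2.84, 3.64 and 3.67 CPM in ddm1nrpe1, against 0.11, 0.247 and 0.0961 CPM in ddm1 (4.47 ± 0.48, adjusted p = 2.2e-06). GH3.3, which conjugates auxin, averaged 26.8 against 7.92 CPM, and YUC8 and YUC9, which synthesise it, 7.59 against 3.65 and 3.92 against 1.88 CPM. The auxin carrier PIN3 was the 1 lower member (89.5 against 122 CPM). The type-A response regulators, which are induced by cytokinin and damp its signal, all fell: 8 of 8 were lower than in ddm1, with a median of -0.86. In the 1.5-fold test 4 of them were called lower. ARR15 stood at 1.42, 2.54 and 6.09 CPM in ddm1nrpe1, against 14.1, 12.1 and 14.1 CPM in ddm1 (-1.99 ± 0.35), and ARR6 averaged 13.9 against 36.6 CPM. Their levels in the other double mutants were also low, with 9.4 CPM in ddm1nrpd1 and 10.7 CPM in ddm1cmt2 for ARR6.

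Clock genes changed in both directions. Among morning and day genes, 5 of 9 were lower and 2 higher. CCA1, a morning transcription factor, stood at 111, 115 and 141 CPM in ddm1nrpe1, against 494, 470 and 540 CPM in ddm1 (-2.03 ± 0.12, adjusted p = 2.0e-09), and its relatives LHY (216 against 647 CPM), RVE8 (36.2 against 94.5 CPM) and RVE1 (12.8 against 93 CPM) fell with it. PRR7, a repressor of CCA1 that peaks later in the day, stood at 67.2, 76.6 and 75.9 CPM, against 8.67, 10.2 and 9.04 CPM (2.98 ± 0.11, adjusted p = 1.3e-11). Of 12 evening genes 8 were lower and 1 higher (4 lower and 1 higher in the test against a 1.5-fold change). GI, which acts late in the day, was the one that rose (15.2 against 1.14 CPM, 3.74 ± 0.22), while ELF3, of the evening complex, fell (20 against 63.7 CPM). The hour at which each genotype was harvested is not given, so its part in these differences was not tested. GI averaged 68.9 CPM in ddm1nrpd1 and 126 CPM in ddm1cmt2, and LHY averaged 512 and 24.7 CPM.

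RVE2, a clock-related factor, stood at 6.15, 8.21 and 14 CPM in ddm1nrpe1, against 211, 112 and 178 CPM in ddm1 (-4.14 ± 0.32, adjusted p = 3.5e-06). In the flowering list, CO, which promotes flowering in long days, averaged 0.934 against 7.01 CPM, and TEM1, which represses flowering, 52.3 against 10.6 CPM. CDF1, a repressor of CO, fell by 1.85 on the log2 scale. The list as a whole had 4 higher and 2 lower of 11, beside 26.5% higher and 23.9% lower over all loci. Its higher count dropped to 2 without ddm1 replicate 2 or 3 and to 1 without ddm1nrpe1 replicate 3. The flowering genes named do not stand for the list. In the cold and drought list 7 of 21 were lower and 1 higher, where 23.9% of all loci were lower and 26.5% higher. The test against a 1.5-fold change called 3 of the list lower, so the genes named next do not stand for the list. CBF2, a regulator of cold response, stood at 0.177, 0.165 and 0.162 CPM, against 2.31, 1.48 and 3.17 CPM in ddm1 (-3.75 ± 0.45), and CBF3 rested on 2 counts in ddm1nrpe1 (37.9-fold lower, counting interval 9.8 to 324). NCED3, which makes abscisic acid, averaged 0.705 against 3.63 CPM. Against ddm1cmt2 18 of the 21 were lower, with COR15A, a cold-induced chloroplast protein, at 1.62 CPM in ddm1nrpe1 and 45.8 CPM in ddm1cmt2.

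Root markers were lower in ddm1nrpe1. Of 20 tested root hair genes 13 fell and none rose (median -1.02), and their summed level ran from 131 to 184 CPM in ddm1nrpe1 and from 240 to 326 CPM in ddm1. COBL9, a cell wall protein of growing hairs, stood at 2.84, 2.87 and 2.86 CPM, against 8.13, 10.5 and 8.85 CPM (-1.68 ± 0.22, adjusted p = 1.6e-05), and LRX1, another wall protein, averaged 8.35 against 27.8 CPM. Markers of other root cell types were lower for 9 of 15 genes (median -0.93), and for 5 in the 1.5-fold test. Their summed levels were 152 to 168 CPM in ddm1nrpe1 and 220 to 263 CPM in ddm1. Among them ESB1, needed for the Casparian strip, averaged 13.9 against 41.2 CPM and the membrane protein CASP1 9.47 against 23.4 CPM. In whole seedlings, fewer cells of a type and less RNA per cell cannot be told apart. None of these root hair genes was without counts in ddm1nrpe1, which differs from ddm1nrpd1: there PRP1, a hair cell wall protein, had no count (5.86 CPM in ddm1nrpe1, at least 115-fold higher), RHS12 had none either, and 18 of 20 were lower there than in ddm1nrpe1, with a median log2 difference of 7.02. Division genes fell as well, in 10 of 18 cases against 1 that rose, with the mitotic syntaxin KN at 18.9 against 37.9 CPM and the cyclin CYCB1;4 at 5.59 against 12.7 CPM. The 1.5-fold test called 4 division genes lower and none higher. The 1 that rose, the replication helicase subunit MCM5, was no longer called without ddm1 replicate 1 or 3 or ddm1nrpe1 replicate 3.

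Nuclear photosynthesis genes differed little as a list, with 8 of 26 higher and 3 lower and a median of 0.19. Over all loci 26.5% were higher and 23.9% lower, and the test against a 1.5-fold change called no member of the list. The higher count moved from 5 to 13 as single libraries were left out (13 without ddm1nrpe1 replicate 1, 5 without ddm1nrpe1 replicate 2 or ddm1 replicate 1). LHCA4, an antenna protein of photosystem I, stood at 2820, 3520 and 4410 CPM in ddm1nrpe1, against 1910, 2290 and 2220 CPM in ddm1 (0.74 ± 0.15, adjusted p = 7.9e-04), and LHCA1 and LHCB3, also antenna proteins, averaged 2490 against 1390 and 2760 against 1610 CPM. The 3 members that fell, RBCS1B, RBCS2B and RBCS3B, encode the small subunit of Rubisco, with RBCS3B at 3800, 4190 and 5110 CPM, against 5800, 6700 and 6260 CPM (-0.52 ± 0.13), and RBCS1B lost its call without ddm1 replicate 1 or 3 or ddm1nrpe1 replicate 2 or 3. Outside the list, the antenna gene CAB2 was higher (5870 against 3110 CPM) and the carbonic anhydrase gene CA1 lower (1500 against 2720 CPM). Neighbouring members of these families share sequence, so reads may be divided between them. Of the 110 plastid-encoded loci, 101 were lower (median -3.74). ATCG00480 averaged 17.1 ± 0.429 CPM in ddm1nrpe1 (SD, n = 3), against 3290, 4230 and 4230 CPM in ddm1 (-7.84 ± 0.18, adjusted p = 4.5e-14), while ATCG00920, among the 9 that were not called, averaged 435 and 442 CPM (adjusted p = 0.95). Against ddm1nrpd1 only 3 plastid loci were called, and against ddm1cmt2 97 were lower. Of 13 tested genes of plastid transcription 7 were lower and 1 higher. The sigma factor SIG5 averaged 23.2 against 72 CPM in ddm1 and 173 CPM in ddm1nrpd1. Any link between these genes and the plastid share was not tested.

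Among single protein-coding genes, those with the largest rises from an undetected level were the receptor-like kinase CRK38 (3.84, 2.48 and 1.62 CPM, at least 24-fold higher), the glutathione transferase GSTU12 (3.67, 2.48 and 1.19 CPM, at least 22.1-fold) and the small gene AT3G48131 (1.95, 1.82 and 1.67 CPM, at least 16.7-fold), each with 0 counts in ddm1. The resistance-type receptor RLP11 was at least 11.8-fold higher, and NATA1, an acetyltransferase induced by jasmonate, rested on 1 ddm1 count (ratio 125, interval 22.2 to 4940). TAT3, a jasmonate-induced aminotransferase, averaged 32.7 against 0.316 CPM but lost its call without ddm1 replicate 3. Abundant genes rose too: ESM1, which steers glucosinolate breakdown, stood at 2530, 2610 and 2140 CPM, against 344, 477 and 316 CPM in ddm1 (2.68 ± 0.15, adjusted p = 1.4e-09). On the lower side, AT2G15020 stood at 2.6, 4.46 and 6.9 CPM, against 105, 94.7 and 134 CPM (-4.57 ± 0.43), and AT3G09450 averaged 1.71 against 46.6 CPM. The B-box factor BBX31 averaged 0.243 against 5.92 CPM, and the heat factor HSFA6B rested on 2 counts in ddm1nrpe1 (47.6-fold lower, interval 12.5 to 404). AT2G15020 and BBX31 were also far below ddm1nrpd1 (94.7 and 6.44 CPM), whereas ROS1 was not (adjusted p = 0.606).

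**Figure D5:**
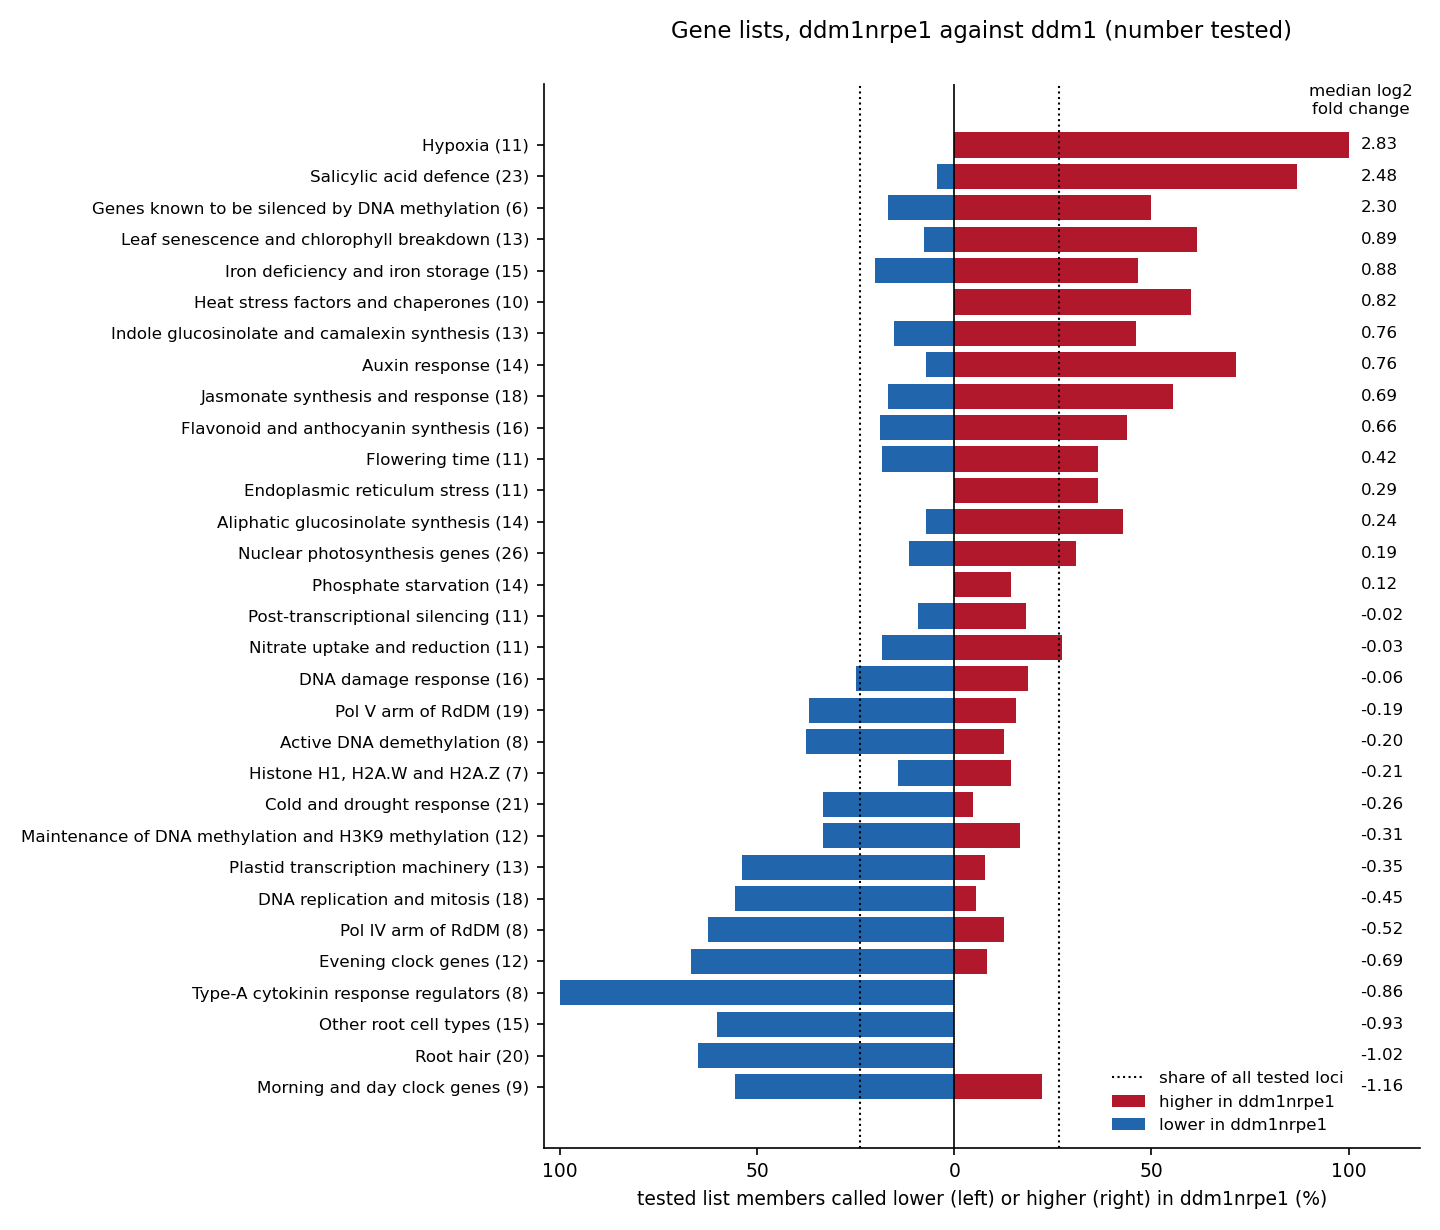
Percentage of tested members of each gene list called higher (right, red) or lower (left, blue) in ddm1nrpe1 than in ddm1, ordered by median log2 fold change (printed at the right), with the number tested in brackets. Dotted lines mark the shares over all tested loci, 26.5% higher and 23.9% lower. The hypoxia list lies at the top with 11 of 11 higher, and 8 of 8 type-A cytokinin response regulators are lower.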

How the data were processed

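The 12 RNA libraries were used, and the other 30 samples were not analysed here. The authors deposited a table of raw read counts per locus beside CPM values, which were checked to be those counts over their column sums and entered no test. The submitters' processing notes name TAIR10, HTSeq, TopHat, edgeR and Trimmomatic, without versions or roles. The strand setting, the handling of multiply matching reads and the annotation are not stated in the labels. Each column was tied to a sample by genotype and replicate number. Names and classes come from a RefSeq gene table (TAIR10.1), which lists 22869 of 23133 gene identifiers, and no coordinates are printed. TE families and positions, genome and promoter sequences were not used here, so no sequence or motif is shown.

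Counts were analysed with edgeR 4.0.16 in R 4.3.3: filterByExpr, TMM, and 1 model of group means over 12 libraries (8 residual degrees of freedom) with robust quasi-likelihood F tests and Benjamini-Hochberg adjustment over 24839 loci at 0.05. SEs are the log2 fold change over the square root of F. A group with 0 counts was set to 3 counts over its 3 libraries for a lower bound on the fold, and with 1 to 3 counts the ratio carries an exact binomial 95% interval. Intervals and floors cover counting error only. Totals of 7.84 to 24.8 M counts set the precision. Shares were compared by exact permutation tests.

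The comparison, the 33 gene lists (465 of 484 entries kept, those whose locus identifier and symbol matched the RefSeq table) and the naming rule were chosen with earlier results of these data known. Named are the mutated genes, the called TE, protein-coding and pseudogene loci furthest from ddm1 with at least 1 CPM and no overlap between libraries, the largest absolute changes, up to 5 members per list and those that help to read it, and loci apart from all 3 genotypes or from ddm1nrpd1. AT1G33950, which met the rule, lost its call without any 1 of the 6 libraries compared and is left out of the report. Lists carry no test. The alternatives were RLE, upper-quartile and protein-coding-only TMM factors, no organelle loci, no filter, CPM of 1 in 3 libraries, DESeq2 1.42.0, limma-voom (limma 3.58.1), the 6 libraries alone, the replicate number as a block, thinning to 7842329 counts, a 1.5-fold test, and each library left out. The steps were run on simulated counts in which few loci changed, none of them weakly expressed, with the same spread at every locus. Those settings differ from these data, so that run does not check the calls at weakly expressed loci or with many changed loci. Replicates correlated at 0.974 to 0.993 across loci and differed by more than counting noise.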

Additional observations from a re-analysis of the deposited data

How the results depend on the processing

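Of the 12 counts of called loci (all loci and TE loci, each direction, against ddm1, ddm1nrpd1 and ddm1cmt2), all stayed within 1.5 times the reported value under every alternative except the test against a 1.5-fold change and 1 left-out library. The 1.5-fold test called 2550 loci higher and 1789 lower than in ddm1, with 169 lower TE loci. Against ddm1nrpd1 it called 1102 and 872 loci, with 228 and 89 TE loci, and against ddm1cmt2 2810 and 2410 loci, with 141 lower TE loci. Many lists also shrank in that test against ddm1. It called 2 Pol IV arm genes lower and none higher, and 1 Pol V arm gene higher and none lower. Jasmonate genes had 5 higher and 1 lower, heat genes 4 higher, hypoxia genes 10 higher, root hair genes 11 lower, and plastid transcription genes 1 higher and 1 lower. With single libraries left out, higher loci ran from 5438 to 6702, lower from 4793 to 6208, higher TE loci from 656 to 737 and lower TE loci from 352 to 443 against ddm1. Against ddm1nrpd1 the ranges were 3384 to 5064, 2640 to 4326 (lowest without ddm1nrpe1 replicate 2), 446 to 589 and 204 to 318, and against ddm1cmt2 5814 to 7082, 5646 to 6797, 837 to 906 and 250 to 331. With upper-quartile factors 5796 loci were higher and 6841 lower than in ddm1. With the replicate number as a block, 6412 loci were higher and 5795 lower, with 719 and 418 TE loci. Same-numbered ddm1nrpe1 and ddm1 libraries correlated at 0.0486, 0.0521 and 0.194 in their deviations from group means, and differently numbered ones at -0.161 to 0.127. Same-numbered ddm1nrpe1 and ddm1nrpd1 libraries correlated at 0.189, -0.0277 and 0.22. With 3 libraries centred within each group, such values cannot exclude pairing. The numbers were not taken to pair the samples because the labels state no pairing. Thinned to equal depth, 634 TE loci were higher and 393 lower. Of 205 named loci followed, none reversed, 140 kept their side of the threshold throughout, 52 lost their call only in the 1.5-fold test, 11 lost it without 1 library and 3 under the block. Apart from the mutated genes, these loci were followed because they were called, many of them without overlap between groups. That choice largely fixed their direction in advance, so the lack of reversals is no check of the calls. The promoter motif search was not run. Depth limits what can be said of loci near 0 counts in ddm1, which had the shallowest libraries.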

Other observations

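Some of the gene groups not described above are given here beside the shares over all loci, 26.5% higher and 23.9% lower. Camalexin is an indole phytoalexin, and its synthesis genes were high in ddm1nrpe1: CYP71A13 stood at 28.8, 14.9 and 11.9 CPM, against 0.439, 0.247 and 0.0961 CPM in ddm1 (log2 fold change 6.14 ± 0.87, adjusted p = 3.0e-04), and PAD3, which acts last in the pathway, averaged 42.3 against 5.74 CPM. CYP79B3, an early enzyme of indole compounds, went the other way (15.6 against 54.2 CPM), and the list had 6 higher and 2 lower of 13. Against ddm1cmt2 it had 2 higher and 4 lower. Its summed level was 420 to 645 CPM in ddm1cmt2, 355 to 518 CPM in ddm1nrpe1 and 252 to 366 CPM in ddm1. Among flavonoid genes, F3H (68.6 against 23.7 CPM in ddm1) and CHI (35 against 13.1 CPM), both synthesis enzymes, were higher. The glycosyltransferase UGT78D2 (19.9 against 61.2 CPM) and the regulator MYB111 (1.91 against 6.66 CPM) were lower. That list had 7 higher and 3 lower of 16 against ddm1, but none higher and 14 lower against ddm1nrpd1, where F3H averaged 176 CPM.

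Genes of chlorophyll breakdown and senescence were mostly higher, 8 of 13, with PAO, which opens the chlorophyll ring, at 81.3 against 31.9 CPM and SAG29, a sugar transporter, at 15.4 against 1.82 CPM. The 1 lower member, NYC1, lost its call without most single libraries. In iron homeostasis 7 of 15 were higher and 3 lower. The summed level of this list was 466 to 541 CPM in ddm1 and 756 to 876 CPM in ddm1nrpe1. It was also above ddm1 in ddm1nrpd1 (888 to 1130 CPM) and ddm1cmt2 (837 to 973 CPM). The ferric reductase FRO3 stood at 74, 76.8 and 78.8 CPM in ddm1nrpe1, against 27.3, 25.9 and 28.8 CPM in ddm1, the ferritin FER1 averaged 238 against 87.1 CPM, and the other ferritins FER3 and FER4 were lower (42 against 59.6 and 22.4 against 30.9 CPM). DNA damage genes (3 of 16 higher, 4 lower) and post-transcriptional silencing genes (2 of 11 higher, 1 lower) did not stand out from all loci by these counts. RAD17, a checkpoint clamp loader, averaged 5.97 against 2.32 CPM, and the kinase ATM 20.7 against 31.4 CPM. Of the silencing genes, those that rose were AGO2 (27.9 against 12.3 CPM) and AGO3 (3.34 against 0.901 CPM), while AGO10 fell by 0.54 on the log2 scale. In the phosphate list, ddm1 replicate 1 stood apart from the other ddm1 libraries, and the 2 higher calls were lost without several single libraries.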
